A study of Homo sapiens with 12 samples.

Results

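The solute carrier (SLC) genes encode membrane proteins that move amino acids, sugars, ions, metabolites and drugs across the plasma membrane and the membranes of organelles. The genes followed here are the protein-coding genes with an SLC symbol and a family number that have a named probe set on the array, 23 genes of 15 families among 11730 protein-coding genes. They are 23 of the 386 such genes in the RefSeq gene table. The best known carriers (the glucose, cystine and monocarboxylate transporters) are not analysed here, and most of the 23 carry family numbers given late, many to genes formerly called MFSD, PQLC or TMEM. One of them, SLC2A4RG, is no carrier: it encodes a zinc finger regulator of the glucose transporter gene SLC2A4, and it is kept because its symbol meets the rule.

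The 12 arrays (Affymetrix Human Gene 2.0 ST) hold total RNA of HCT116, SW48 and RKO, established human colorectal cancer lines that the labels give as p53 wild type. A line is represented by 2 arrays of cells without treatment and 2 of cells exposed to Nutlin-3a at 10 µM over 8 h, which makes 6 groups. This compound is a small molecule that keeps the ubiquitin ligase MDM2 from binding p53, so that p53 accumulates; no solvent control is named in the labels, and their growth text names HCT116 for every sample. Every group is one established line, and whether duplicates came from separate cultures is not stated, so the p-values reflect only how far these arrays spread, which may be technical.

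As background, SLC proteins work as uniporters, as symporters that draw on sodium or proton gradients, or as exchangers, and they are grouped into families by sequence rather than by substrate. Family 25 sits mostly in the inner mitochondrial membrane, family 35 mostly in the Golgi apparatus and endoplasmic reticulum, while SLC66A1 and SLC49A4 sit in lysosomes. p53 is known to act on metabolism partly through transporters, above all those for glucose and cystine, while most genes described here have no well established link to p53.

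Promoter sequences of the called members are shown for the 5 genes whose level changed with Nutlin-3a when averaged over the lines, 4 down and 1 up. The 250 bases before the RefSeq start (GRCh38.p14) are given 5′ to 3′ on the gene's strand; capitals mark the CCAAT box, the letters CCAAT on either strand, a common promoter element bound by NF-Y. SLC38A12, SLC68A1, SLC2A4RG and SLC71A2 fell and SLC60A1 rose; the windows are chr17:74776249-74776498, chr10:102461145-102461394, chr20:63739526-63739775, chr9:94374319-94374568 and chr1:205568764-205569013, all on the plus strand.
SLC38A12: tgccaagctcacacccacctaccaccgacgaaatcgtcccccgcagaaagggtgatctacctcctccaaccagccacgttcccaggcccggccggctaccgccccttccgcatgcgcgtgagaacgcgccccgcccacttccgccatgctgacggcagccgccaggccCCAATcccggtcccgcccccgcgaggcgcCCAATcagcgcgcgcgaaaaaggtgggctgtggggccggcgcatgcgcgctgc
SLC68A1: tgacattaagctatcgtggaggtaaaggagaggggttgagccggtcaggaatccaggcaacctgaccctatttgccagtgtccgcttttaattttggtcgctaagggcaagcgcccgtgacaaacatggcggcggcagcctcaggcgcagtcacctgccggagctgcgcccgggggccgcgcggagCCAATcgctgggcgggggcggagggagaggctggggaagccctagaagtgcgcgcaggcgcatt
SLC2A4RG: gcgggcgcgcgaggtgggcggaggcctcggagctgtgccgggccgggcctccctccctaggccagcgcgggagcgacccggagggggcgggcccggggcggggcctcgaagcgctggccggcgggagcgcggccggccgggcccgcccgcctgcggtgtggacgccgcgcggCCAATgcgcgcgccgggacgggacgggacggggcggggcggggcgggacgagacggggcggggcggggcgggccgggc
SLC71A2: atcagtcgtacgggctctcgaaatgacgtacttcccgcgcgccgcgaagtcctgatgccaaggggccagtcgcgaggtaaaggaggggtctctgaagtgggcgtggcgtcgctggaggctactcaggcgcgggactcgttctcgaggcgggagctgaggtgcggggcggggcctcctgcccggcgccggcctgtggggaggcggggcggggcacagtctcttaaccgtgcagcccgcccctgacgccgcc
SLC60A1: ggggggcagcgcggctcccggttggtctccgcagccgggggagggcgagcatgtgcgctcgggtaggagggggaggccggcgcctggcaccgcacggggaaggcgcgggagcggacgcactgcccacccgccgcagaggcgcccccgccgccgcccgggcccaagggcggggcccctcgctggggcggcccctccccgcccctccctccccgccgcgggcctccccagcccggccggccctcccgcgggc

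Of the 23 members 18 were matched in the RefSeq promoter table. CCAAT was found in 4 of these 18 windows, beside 33% of 27305 windows of the same length: in SLC38A12, at 2 places starting 82 and 53 bases before the start, in SLC68A1 at 64, in SLC2A4RG at 78, and on the minus strand in SLC61A1. SLC71A2 and SLC60A1 had no match. The p53 half-site motif of 10 letters was found in 0 of 18 windows and in 5.53% of all windows, the E-box CACGTG in SLC60A2 (6.49% of all), and the ATF4-type element TGATGNAA in SLC51B (3.19% of all); in the members no match of 1 motif overlapped a match of another. Both strands were read. A match is a description of letters, and no match says only that these letters are not in this window.

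Values are log2 array signals, and effects are differences of group means on the log2 scale ± standard error from 1 limma model over all 12 arrays, with n = 2 arrays in each group. A gene is said to have risen, fallen or differed where limma's p, adjusted over 14118 named genes by the Benjamini-Hochberg method, is under 0.05. Levels are compared within a gene only. The mean of the members over all arrays ran from 4.91 for SLC51B to 11.2, and 22 of 23 lay above the median of all probe sets (5.01) in all 6 groups. SLC51B, SLC51A and SLC25A2 were the dimmest, and the table holds no detection call. Between the 2 arrays of a group the members differed by a median of 0.057 to 0.097 and by at most 0.43. Of 10 colorectal epithelial markers 9 were measured, all above that median in at least 1 group, with a mean over the list of 5.69 to 7.48 by group. EPCAM, KRT8, KRT18, VIL1, CDX1 and CDX2 lay above it in all 6 groups. The adhesion molecule EPCAM had untreated means of 11.02 in HCT116, 11.12 in SW48 and 6.03 in RKO. CEACAM5, LGR5 and KRT20 lay below it in some lines. In the same order of lines their untreated means were 4.37, 9.25 and 4.67 for CEACAM5, 3.84, 6.75 and 3.72 for LGR5, and 5.27, 4.41 and 4.17 for KRT20. The extraction text of the labels speaks of thyroids; of 9 thyroid markers 5 were measured, 4 of them above that median in at least 1 group, with a list mean of 5.13 to 5.35 by group. The transcription factor genes NKX2-1 and PAX8 were the brightest of the 5, with untreated means in HCT116, SW48 and RKO of 6.24, 5.99 and 5.81 for NKX2-1 and of 5.72, 5.81 and 5.36 for PAX8. Thyroglobulin (TG) had 5.17, 5.18 and 5.08, FOXE1 5.08, 5.06 and 4.84, and the thyrotropin receptor gene TSHR, below the median in all 6 groups, 4.54, 4.49 and 4.57. The part of thyroid RNA in the results was not tested. In bulk RNA a smaller share of cells and less RNA per cell cannot be told apart.

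Effects of Nutlin-3a on the SLC genes were small. None of the 23 changed as much as 2-fold in any line, and the median absolute change was 0.13 in HCT116, 0.11 in SW48 and 0.088 in RKO, beside 0.098, 0.089 and 0.091 over all protein-coding genes. In HCT116, 2 of 23 members changed, 1 up and 1 down (8.70%), against 5.11% of all genes and 5.76% of protein-coding genes. In SW48, 1 member changed (4.35%), against 3.12% and 3.51%. In RKO, limma called 0 of 23 members, with 4 at an unadjusted p under 0.05, against 2.02% and 2.28%. At counts this low the members cannot be set apart from the background. Averaged over the 3 lines, which gives the smallest standard errors, 5 members changed, 1 up and 4 down (21.7%), against 10.8% of all genes and 12.3% of protein-coding genes. This count is also too low to set the members apart from the background, and it was 3 with all probe sets tested. The median of the mean effect was -0.041 over the members and -0.011 over protein-coding genes.

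**Figure D1:**
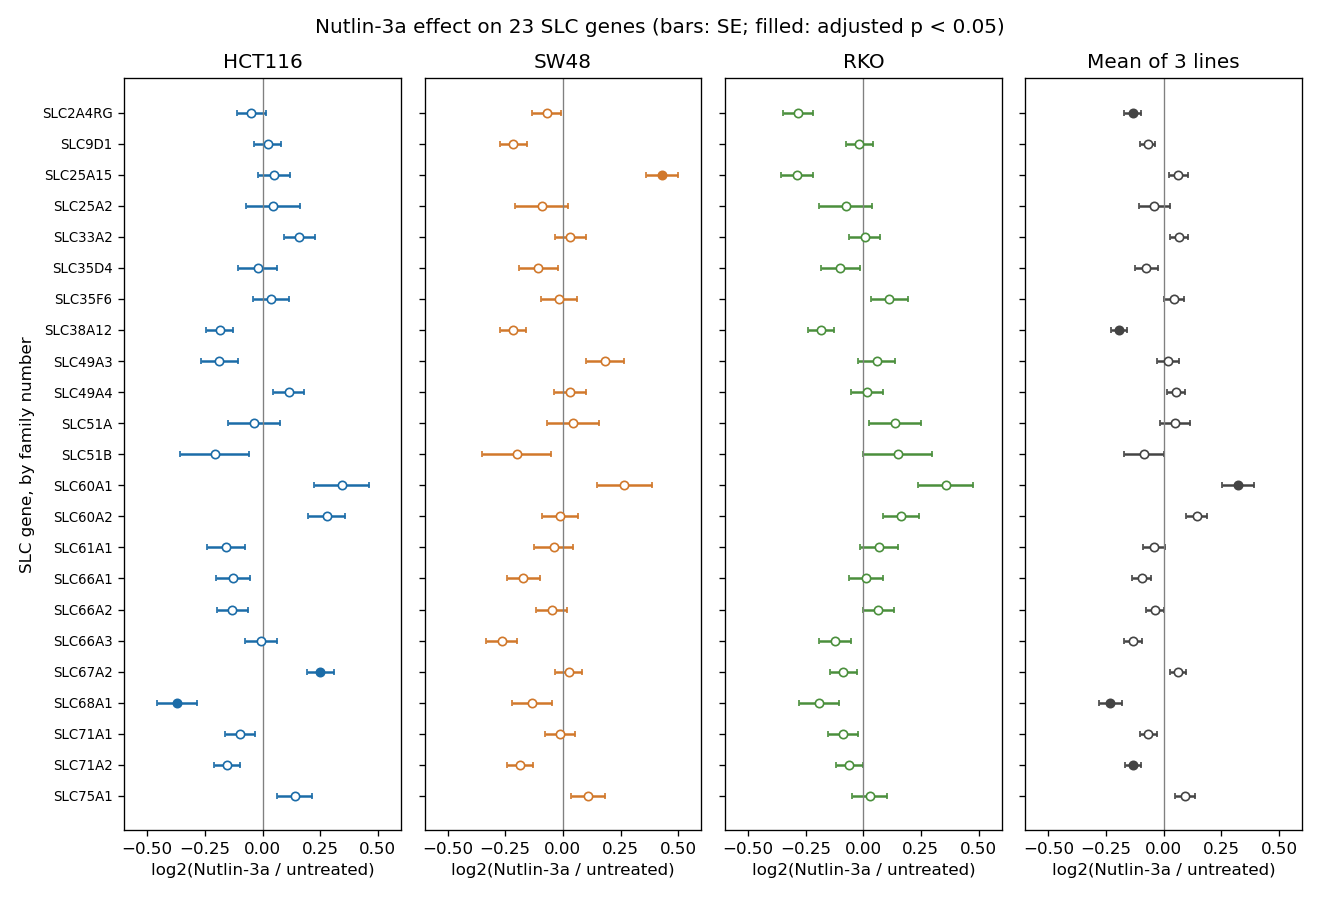
Nutlin-3a effect on each of the 23 SLC genes (rows, by family number) in HCT116, SW48, RKO and averaged over the lines, as the log2 difference of group means with its standard error. Filled points passed the test: 2 in HCT116, 1 in SW48, 0 in RKO and 5 for the mean, all within 0.43 of 0.

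The amino acid transporter family member SLC38A12, formerly TMEM104, fell in the mean over the lines by 0.20 on the log2 scale (-0.20 ± 0.034, adjusted p = 0.00549). Its values were 9.59 and 9.63 untreated and 9.44 and 9.42 with Nutlin-3a in HCT116, 9.09 and 9.03 untreated and 8.84 and 8.84 with Nutlin-3a in SW48 and 9.26 and 9.19 untreated and 9.01 and 9.08 with Nutlin-3a in RKO. Both treated arrays lay below both untreated arrays in each line, and the 3 line effects were close to each other (-0.19, -0.22 and -0.18), though none passed alone (adjusted p = 0.111, 0.086 and 0.15). The 95% interval of the difference between SW48 and HCT116 effects ran from -0.22 to 0.15. The mean effect passed whichever 1 of the 12 arrays was left out.

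SLC68A1, formerly TMEM180 or MFSD13A and studied as a surface antigen of colorectal cancer, fell in the mean (-0.23 ± 0.05, adjusted p = 0.0168) and in HCT116 (-0.37 ± 0.087, adjusted p = 0.0392, 1.29-fold lower). Its values in HCT116 were 9.55 and 9.30 untreated and 9.05 and 9.06 with Nutlin-3a, so the treated arrays lay together below untreated arrays that differed from each other by 0.25. In SW48 they were 8.25 and 8.20 untreated and 8.03 and 8.16 with Nutlin-3a, and in RKO 8.60 and 8.51 untreated and 8.40 and 8.32 with Nutlin-3a, again lower with Nutlin-3a and not past the test (-0.13 ± 0.087, adjusted p = 0.508 and -0.19 ± 0.087, adjusted p = 0.298). The HCT116 call was lost without untreated replicate 1 of HCT116 (-0.25, adjusted p = 0.237), without either of its Nutlin-3a arrays (0.149 and 0.153), and without either untreated SW48 array (0.0574) or any 1 RKO array (0.0543 to 0.0547). With each array centred on its median it also missed (adjusted p = 0.0572). The mean effect passed whichever 1 array was left out.

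Of the MFSD-derived genes, SLC60A1 (formerly MFSD4A) was the called member that rose in the mean, by 0.32 or 1.25-fold (0.32 ± 0.069, adjusted p = 0.0155). Its values were 6.09 and 5.99 untreated and 6.27 and 6.49 with Nutlin-3a in HCT116, 6.72 and 6.73 untreated and 6.85 and 7.13 with Nutlin-3a in SW48 and 5.84 and 6.12 untreated and 6.39 and 6.29 with Nutlin-3a in RKO. Treated arrays were above untreated arrays in all 3 lines, by 0.34 ± 0.12, 0.27 ± 0.12 and 0.36 ± 0.12, with none past the test alone (adjusted p = 0.142, 0.306 and 0.166). The call of the mean held whichever 1 array was left out. Its relative SLC60A2, whose rat counterpart carries glucose with sodium, stood at 0.28 ± 0.08 in HCT116, -0.013 ± 0.08 in SW48 and 0.16 ± 0.08 in RKO and did not pass in the mean (0.14 ± 0.046, adjusted p = 0.0815).

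A further 2 members fell slightly in the mean. SLC71A2, formerly MFSD14B, had 11.12 and 11.16 untreated and 10.99 and 10.97 with Nutlin-3a in HCT116, 11.28 and 11.24 untreated and 11.12 and 11.03 with Nutlin-3a in SW48 and 11.29 and 11.30 untreated and 11.26 and 11.21 with Nutlin-3a in RKO, with the treated arrays below the untreated ones in each line (-0.13 ± 0.033, adjusted p = 0.0309). Its close relative SLC71A1 stood at -0.066 ± 0.037 (adjusted p = 0.327). SLC2A4RG, the regulator, had 9.14 and 9.05 untreated and 9.06 and 9.04 with Nutlin-3a in HCT116, where the arrays overlapped, 8.45 and 8.33 untreated and 8.32 and 8.32 with Nutlin-3a in SW48, and 8.91 and 8.94 untreated and 8.61 and 8.67 with Nutlin-3a in RKO (-0.13 ± 0.037, adjusted p = 0.0463). These calls sat at the edge of the threshold. SLC71A2 lost it when any 1 array was left out except Nutlin-3a replicate 1 of SW48 (effects of -0.148 to -0.119 over all left-out fits). It also lost the call with all probe sets tested (adjusted p = 0.0894). SLC2A4RG lost it when any 1 array was left out except untreated replicate 2 of SW48 (effects of -0.153 to -0.115). SLC2A4RG also missed under quantile normalization (adjusted p = 0.0819), with all probe sets tested (0.116) and with the replicate block (0.0668).

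**Figure D2:**
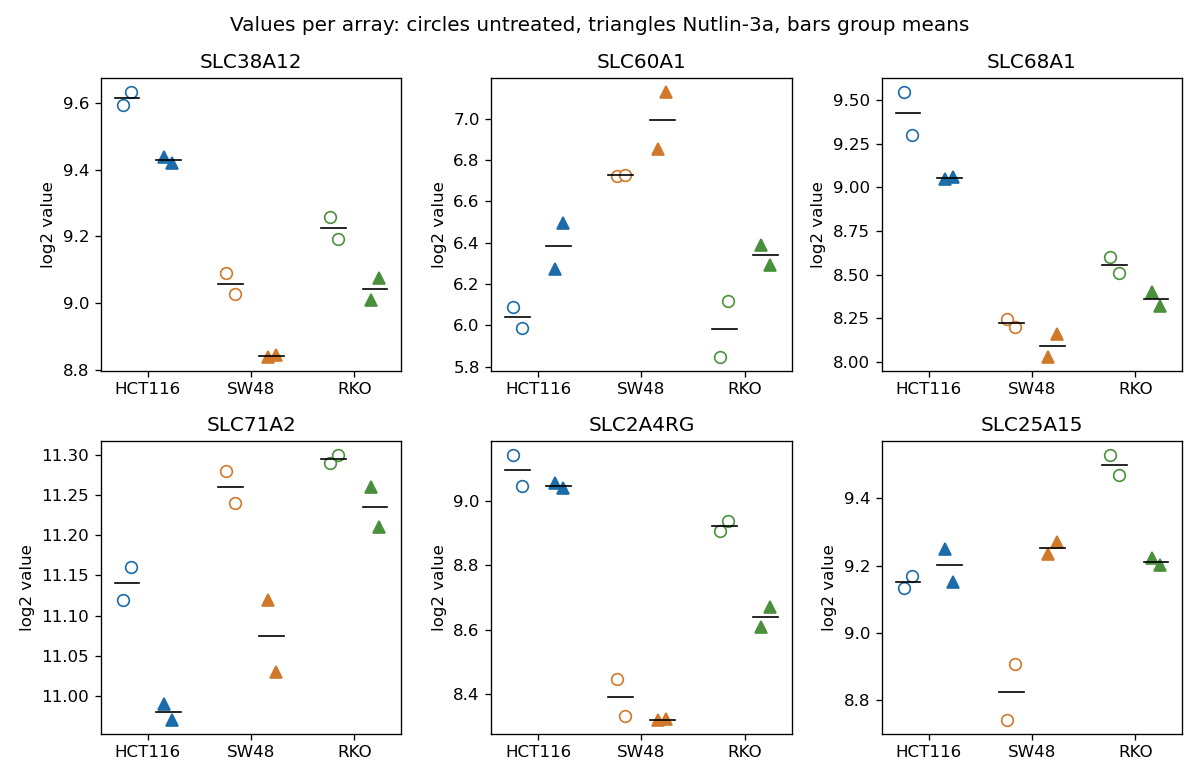
Log2 values on each array for the 5 members called for the mean effect and for SLC25A15, by line; circles are untreated arrays, triangles Nutlin-3a arrays and bars group means, and each panel has its own axis that does not start at 0. SLC38A12, SLC68A1 and SLC71A2 are lower and SLC60A1 higher with Nutlin-3a in all 3 lines, whereas SLC25A15 is higher in SW48 and lower in RKO.

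Family 25 held the member whose response varied with the line. SLC25A15 (ORC1) encodes the mitochondrial ornithine carrier, which links the cytosolic and mitochondrial steps of the urea cycle and is mutated in the hyperornithinemia-hyperammonemia-homocitrullinuria syndrome. In SW48 its values were 8.74 and 8.91 untreated and 9.24 and 9.27 with Nutlin-3a, a 1.35-fold rise (0.43 ± 0.07, adjusted p = 0.0096). In RKO they were 9.53 and 9.47 untreated and 9.22 and 9.20 with Nutlin-3a, lower with Nutlin-3a and just outside the threshold (-0.29 ± 0.07, adjusted p = 0.0704), and in HCT116 9.13 and 9.17 untreated and 9.25 and 9.15 with Nutlin-3a, overlapping (0.049 ± 0.07, adjusted p = 0.766). The treated groups of the 3 lines lay within 9.15 to 9.27 while the untreated groups lay apart.

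The F test that the 3 effects are equal called SLC25A15 (adjusted p = 0.0378) and no other member, with 4 of 23 at an unadjusted p under 0.05; it called 0.503% of all genes and 0.537% of protein-coding genes. Among the 3 pairs of lines, RKO minus SW48 differed (-0.72 ± 0.099, adjusted p = 0.0231), while SW48 minus HCT116 (0.38 ± 0.099, adjusted p = 0.17) and RKO minus HCT116 (-0.34 ± 0.099, adjusted p = 0.237) did not pass. The F test missed the threshold whichever 1 of the 12 arrays was left out (adjusted p = 0.0518 to 0.114), and the SW48 rise was lost without untreated replicate 1 (0.0769) or either Nutlin-3a array of SW48 (0.0568 and 0.0763). The related ornithine carrier gene SLC25A2, which lacks introns, was dim and did not pass in any line (adjusted p = 0.881, 0.766 and 0.802); signal shared between the 2 probe sets was not tested.

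SLC67A2, formerly MFSD9, rose in HCT116 (0.25 ± 0.058, adjusted p = 0.0389), with 7.18 and 7.26 untreated and 7.47 and 7.48 with Nutlin-3a. In SW48 it had 7.60 and 7.62 untreated and 7.62 and 7.65 with Nutlin-3a, and in RKO 7.65 and 7.60 untreated and 7.50 and 7.57 with Nutlin-3a; the difference between the lines did not pass (adjusted p = 0.19). The HCT116 call was lost whichever 1 of the 12 arrays was left out (adjusted p = 0.0524 to 0.231).

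The other members did not pass in any line or in the mean. In the PQ-loop family 66, SLC66A1 (PQLC2), which exports cationic amino acids from lysosomes, stood at -0.096 ± 0.042 in the mean, SLC66A2 at -0.038 ± 0.039 and SLC66A3 at -0.13 ± 0.039 (adjusted p = 0.198, 0.627 and 0.0625). SLC66A3 was lower on both Nutlin-3a arrays of SW48 (9.79 and 9.72 untreated and 9.54 and 9.44 with Nutlin-3a; -0.27 ± 0.068, adjusted p = 0.074). SLC49A4, a lysosomal relative of the heme exporter genes, stood at 0.054 ± 0.039, and its family partner SLC49A3 at -0.19 ± 0.081 in HCT116 and 0.18 ± 0.081 in SW48. The nucleotide sugar transporter family members SLC35D4 (-0.076 ± 0.049) and SLC35F6 (0.045 ± 0.045), the acetyl-CoA transporter relative SLC33A2 (0.066 ± 0.039), the sodium-proton exchanger relative SLC9D1 (-0.07 ± 0.034), SLC61A1, which takes up molybdate (-0.043 ± 0.048), and the organic anion carrier gene SLC75A1 (0.092 ± 0.043) were within 0.1 of 0 in the mean. SLC51A and SLC51B, the 2 subunits of the bile acid exporter OSTα-OSTβ of the ileum, were near the median of all probe sets and stood at 0.049 ± 0.065 and -0.086 ± 0.087. With standard errors of 0.057 to 0.15 for 1 line, the smallest change called in a line was 0.25.

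The lines themselves differed in these genes far more than treated and untreated cells did. Untreated means differed between the lines for 17 of 23 members by the F test, beside 58.1% of all genes and 63.2% of protein-coding genes. For 20 of 23 members the range of the 3 untreated means exceeded the largest Nutlin-3a effect in any line. The exceptions were SLC51A, SLC71A2 and SLC9D1, none of which passed a test between lines. This count was not made over all genes. Of all genes, Nutlin-3a calls took 5.11% in HCT116, 3.12% in SW48 and 2.02% in RKO, against the 58.1% between untreated lines. The larger line differences are therefore not particular to the SLC genes. Between SW48 and HCT116, 16 of 23 members differed, 11 higher and 5 lower in SW48 (69.6%), against 44.9% of all genes and 49.2% of protein-coding genes. Between RKO and HCT116 there were 11, 6 higher and 5 lower in RKO (47.8%), against 41.5% and 45.4%, and between RKO and SW48 12, 7 higher and 5 lower in RKO (52.2%), against 44.7% and 48.8%. The labels name no batch, and a batch that ran with the line cannot be told apart from it.

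**Figure D3:**
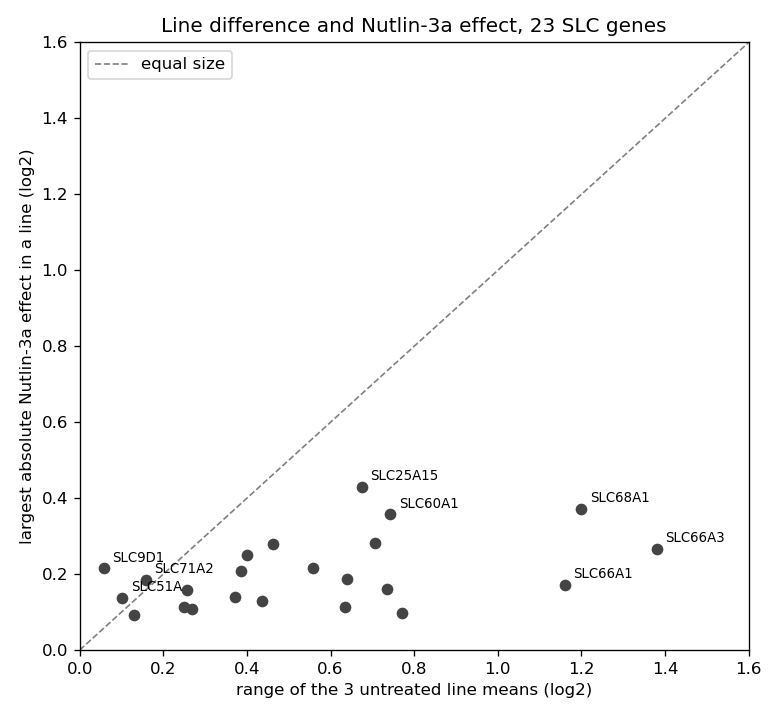
For each of the 23 SLC genes, the range of the 3 untreated line means (horizontal, log2) against the largest absolute Nutlin-3a effect in a line (vertical, log2); the dashed line marks equal size. Of the points 20 lie below the line, and SLC66A3, SLC68A1 and SLC66A1 have the widest ranges, 1.38, 1.20 and 1.16.

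In the PQ-loop family 66 all 3 members differed between the lines; SLC66A3 and SLC66A2 were highest in SW48 and lowest in RKO, and SLC66A1 was highest in RKO and lowest in HCT116. SLC66A3 had the widest range of untreated line means among the 23 genes. SLC66A3 values were 8.76 and 8.83 in HCT116, 9.79 and 9.72 in SW48 and 8.43 and 8.32 in RKO: SW48 was 2.60-fold above RKO (RKO minus SW48 -1.38 ± 0.068, adjusted p = 9.71e-08) and 1.94-fold above HCT116 (0.96 ± 0.068, adjusted p = 1.46e-06), and all 3 pairs of lines differed. SLC66A1, the lysosomal cationic amino acid exporter, had 7.86 and 8.00 in HCT116, 8.31 and 8.46 in SW48 and 9.06 and 9.12 in RKO. It was highest in RKO, 2.23-fold above HCT116 (1.16 ± 0.073, adjusted p = 7.18e-07), with SW48 between the 2 and apart from both. SLC66A2 had 7.76 and 7.63 in HCT116, 8.04 and 8.04 in SW48 and 7.57 and 7.63 in RKO; SW48 was above HCT116 (0.35 ± 0.068, adjusted p = 0.00173) and RKO, which did not differ beyond their spread (adjusted p = 0.331).

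SLC68A1 was the member most biased to HCT116, with 9.55 and 9.30 in HCT116, 8.25 and 8.20 in SW48 and 8.60 and 8.51 in RKO. SW48 was 2.30-fold below HCT116 (-1.20 ± 0.087, adjusted p = 1.66e-06) and RKO 1.83-fold below it (-0.87 ± 0.087, adjusted p = 2.09e-05). Its lower level in SW48 than in RKO (0.33 ± 0.087, adjusted p = 0.0108) lost the call without untreated replicate 2 of SW48 (0.0593) or untreated replicate 1 of RKO (0.0704). SLC38A12 followed the same order, with 9.59 and 9.63 in HCT116, 9.09 and 9.03 in SW48 and 9.26 and 9.19 in RKO, and SW48 was 0.56 below HCT116 (SW48 minus HCT116 -0.56 ± 0.058, adjusted p = 2.4e-05). Its RKO to SW48 difference of 0.17 was lost when any 1 array was left out except the 2 Nutlin-3a arrays of RKO (adjusted p = 0.0525 to 0.182). SLC2A4RG had 9.14 and 9.05 in HCT116, 8.45 and 8.33 in SW48 and 8.91 and 8.94 in RKO, with SW48 below both HCT116 (-0.71 ± 0.064, adjusted p = 8.13e-06) and RKO (RKO minus SW48 0.53 ± 0.064, adjusted p = 6.46e-05). SLC49A3 had 6.88 and 6.72 in HCT116, 6.08 and 6.24 in SW48 and 6.20 and 6.22 in RKO, higher in HCT116 than in SW48 (-0.64 ± 0.081, adjusted p = 9.48e-05) and RKO (-0.59 ± 0.081, adjusted p = 0.000203), which did not differ beyond their spread (adjusted p = 0.668).

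**Figure D4:**
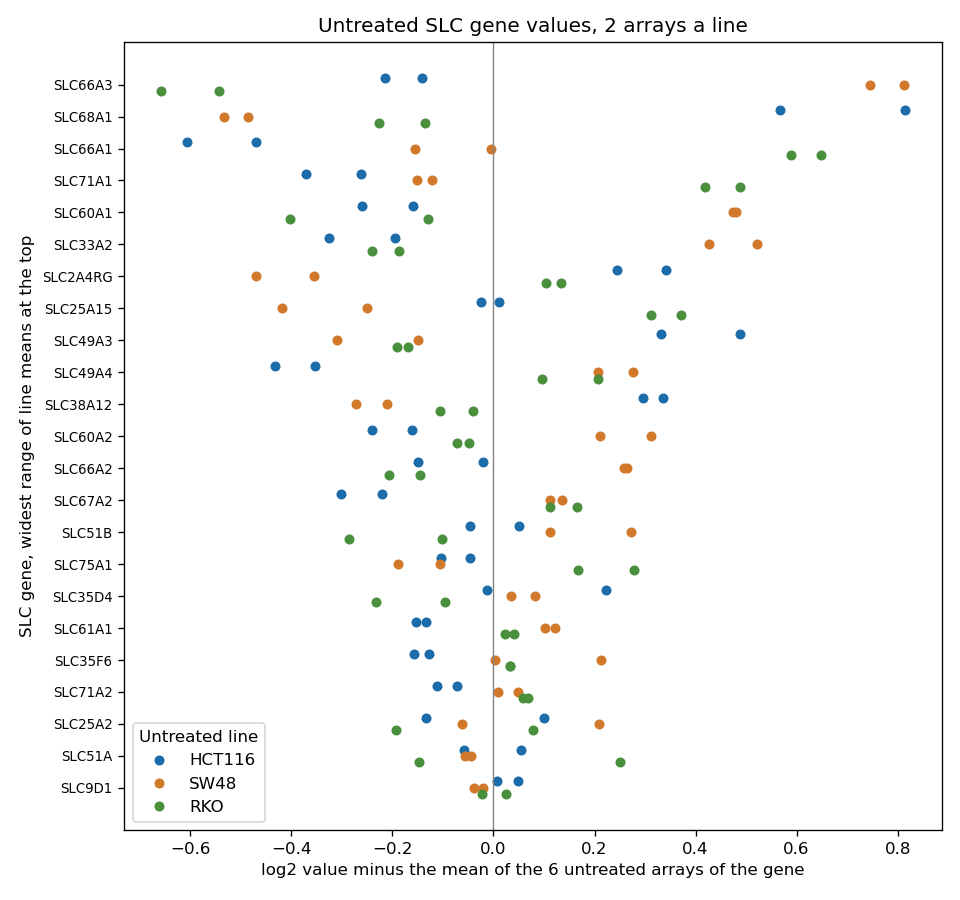
Untreated values of the 23 SLC genes, 2 arrays a line, each as the log2 value minus the mean of the gene's 6 untreated arrays; genes are ordered by the range of their line means. SLC66A3 is highest in SW48, SLC68A1 in HCT116 and SLC66A1 and SLC71A1 in RKO, while the lowest rows overlap.

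Among members highest in SW48, SLC33A2 had 8.94 and 9.07 in HCT116, 9.78 and 9.69 in SW48 and 9.02 and 9.07 in RKO, a 1.66-fold excess over HCT116 (0.73 ± 0.068, adjusted p = 1.01e-05), and HCT116 and RKO did not differ beyond their spread (adjusted p = 0.645). SLC60A1, the gene that rose with Nutlin-3a, had 6.09 and 5.99 in HCT116, 6.72 and 6.73 in SW48 and 5.84 and 6.12 in RKO, with SW48 above HCT116 (0.69 ± 0.12, adjusted p = 8e-04) and RKO (RKO minus SW48 -0.74 ± 0.12, adjusted p = 0.00048). SLC60A2 showed the same order of SW48 over the others, 0.46 ± 0.08 over HCT116; its excess over RKO was lost without untreated replicate 1 of SW48 (adjusted p = 0.0579). SLC49A4 had 10.41 and 10.49 in HCT116, 11.12 and 11.05 in SW48 and 11.05 and 10.94 in RKO and was lowest in HCT116, below SW48 (0.64 ± 0.068, adjusted p = 2.76e-05) and RKO (0.55 ± 0.068, adjusted p = 9.4e-05).

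Among members highest in RKO, SLC71A1 had 10.28 and 10.39 in HCT116, 10.50 and 10.53 in SW48 and 11.14 and 11.07 in RKO, 1.71-fold above HCT116 (0.77 ± 0.065, adjusted p = 5.98e-06) and also above SW48 (0.59 ± 0.065, adjusted p = 3.46e-05). Its SW48 to HCT116 difference of 0.18 was lost when any 1 array was left out other than the Nutlin-3a arrays of RKO and untreated replicate 2 of HCT116 (adjusted p = 0.0510 to 0.246). The ornithine carrier gene SLC25A15 had 9.13 and 9.17 in HCT116, 8.74 and 8.91 in SW48 and 9.53 and 9.47 in RKO, and all 3 pairs of lines differed, RKO being 1.60-fold above SW48 (0.68 ± 0.07, adjusted p = 2.25e-05). SLC75A1 had 9.71 and 9.66 in HCT116, 9.57 and 9.66 in SW48 and 9.93 and 10.04 in RKO; RKO exceeded SW48 (0.37 ± 0.075, adjusted p = 0.00231) and HCT116 (0.30 ± 0.075, adjusted p = 0.0092), the latter lost without untreated replicate 2 of HCT116 (0.0600) or of RKO (0.0703). SLC67A2 had 7.18 and 7.26 in HCT116, 7.60 and 7.62 in SW48 and 7.65 and 7.60 in RKO; SW48 (0.39 ± 0.058, adjusted p = 0.000328) and RKO (0.40 ± 0.058, adjusted p = 0.000304) were above HCT116 and did not differ beyond their spread (adjusted p = 0.868).

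Smaller line differences were unstable. SLC35F6 was higher in SW48 than in HCT116 (0.25 ± 0.078, adjusted p = 0.0244) and lost the call without either untreated HCT116 array (0.0708 and 0.101) or untreated replicate 1 of SW48 (0.14, 0.194). SLC61A1 (0.26 ± 0.083, adjusted p = 0.029) lost it when any 1 untreated array of HCT116 or SW48 was left out (0.0835 to 0.108) and under quantile normalization (0.0789). SLC35D4, lower in RKO than in HCT116 (-0.27 ± 0.085, adjusted p = 0.0281), lost it without untreated replicate 2 of HCT116 (0.224) or of RKO (0.168) and with arrays centred on their medians (0.0812). SLC61A1 did not pass the F test over the 3 untreated lines (adjusted p = 0.0555). SLC25A2, SLC51A, SLC51B, SLC71A2 and SLC9D1 differed in no pair of lines (adjusted p of the F test 0.0803 to 0.733).

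Genes that partner or neighbour the carriers in function were counted from lists. Over all genes, limma called 5.11% in HCT116, 3.12% in SW48, 2.02% in RKO and 10.8% in the mean. Of 25 partners and SLC-type carriers under other symbols, 12 were measured (2 more, MFSD5 and MFSD10, are the members SLC61A1 and SLC75A1); 0 changed in any 1 line, and in the mean 1 fell, XK, the Kx blood group membrane protein (-0.23 ± 0.051, adjusted p = 0.0212). BSG, the chaperone of the monocarboxylate transporters, stood at -0.0092 ± 0.03, and the mitochondrial pyruvate carrier subunits MPC1 and MPC2 at -0.028 ± 0.047 and -0.051 ± 0.036. Of 10 aquaporins, the other measured transporter genes of the lists, 0 changed in any line or in the mean. Of 16 genes of the amino acid response 14 were measured. Of these, 6 rose in HCT116, 4 in SW48, 3 in RKO and 9 in the mean, and 0 fell. Among those that rose in the mean were SESN2 (1.44 ± 0.045), a p53 target in its own right, and the asparagine synthetase gene ASNS (0.32 ± 0.033). ASNS stood at 0.61 ± 0.057 in HCT116 (adjusted p = 0.000239), 0.24 ± 0.057 in SW48 (0.0573) and 0.11 ± 0.057 in RKO (0.389). The genes called in RKO were DDIT3, SESN2 and DDIT4. ATF4 (0.077 ± 0.059, adjusted p = 0.486), PHGDH, SHMT2, CTH and VLDLR did not pass in the mean. The source of the rises was not tested. Of 12 ion gradient genes 2 were measured, and the sodium pump regulator FXYD3 rose in the mean (0.35 ± 0.088, adjusted p = 0.0326). At counts this low the partners, aquaporins and ion gradient genes cannot be set apart from the share over all genes. The 13 SLC genes listed as linked to p53 are not analysed here.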

How the data were processed

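RNA of the 12 samples was read on 1 array each. The authors deposited log2 values, 1 per probe set and array; GCOS was used, per the submitters' processing notes, and its version, the background correction, the normalization and the log base were each not given in the sources used here. Base 2 was taken from the range of 2.22 to 13.45. Column medians were close to each other, 4.98 to 5.05, which alone does not show that arrays were on 1 scale. Genes were not centred. The platform annotation gave 1 symbol to 14530 of 37270 probe sets, several to 0 and none to 22740; RefSeq (GRCh38.p14) changed 0 symbols and gave gene types. The probe set with the highest mean was kept per symbol (14118 genes); each member had 1. limma 3.58.1 in R 4.3.3 fitted 6 group means (6 residual and 3.71 prior degrees of freedom), tested on simulated data first; the number of arrays limits the precision. Depth does not apply to arrays. Alternatives were normalization, variance model, dim filter, probe set choice, genes tested, threshold, replicate block, lines alone and each array left out. Columns not used numbered 0.

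Members, lists and rules were chosen with earlier results of these data known. The rule named the 8 largest called rises and falls of each Nutlin-3a contrast and of the mean, the 6 largest called differences each way of each untreated contrast, the 8 smallest p of the F test, and the measured genes of 4 lists; of the lists, the text gives counts with examples. All 23 members are named, since the set is small. Other SLC genes are not analysed here. No batch is given in the labels.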

Additional observations from a re-analysis of the deposited data

Results flagged for a closer look

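SLC25A15 stood out because its Nutlin-3a effect differed between the lines (adjusted p = 0.0378, limma F test): 0.43 ± 0.07 in SW48, -0.29 ± 0.07 in RKO and 0.049 ± 0.07 in HCT116, n = 2 arrays a group. Both treated arrays were higher in SW48 and both were lower in RKO, where the effect alone did not pass (adjusted p = 0.0704, limma). The F test call was lost with all probe sets tested (adjusted p = 0.0806) and with the replicate block (0.0813). As given above, it was also lost whichever 1 array was left out. The 3 treated groups stood closer together than the 3 untreated groups, which differed in all 3 pairs. Groups of 2 arrays were too small for a search for single outlying arrays.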

How the results depend on the processing

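Of 912 recomputed values of 48 called gene differences, 0 changed sign, 801 stayed past the threshold and 111 did not. The 48 include the adjusted p of the SLC25A15 F test, which has no sign. The sign could not change where a setting left the effect itself as it was. Such settings were the variance model, the dim filter, the probe set choice, the genes tested and the replicate block. Leaving out an array outside the contrast also left the effect as it was. Counts of called SLC genes that moved by over 1.5 times were these, and the cause was not tested. For HCT116, with 2 in the main setting, the count was 1 with each array centred on its median, 5 (2 up, 3 down) with an intensity trend and robust prior, and 0 at a threshold of 0.01, with all probe sets in the test or with the line fitted alone. For SW48, with 1, it was 4 with the trend, 2 with the filter on dim genes and 0 with the line alone. For RKO, with 0, it was 2 with the trend and 2 with the filter, each time SLC25A15 and SLC2A4RG, both lower. For the mean, with 5, it was 3 with all probe sets tested and 1 (SLC38A12) at 0.01. For the F test, with 1, it was 0 with all probe sets and at 0.01. Leaving out each array in turn gave 0 to 1 in HCT116, 0 to 1 in SW48, 0 to 0 in RKO, 3 to 5 for the mean, 0 to 0 for the F test, 13 to 16 for SW48 against HCT116, 9 to 12 for RKO against HCT116 and 10 to 13 for RKO against SW48; the untreated counts stayed within 1.5 times of 16, 11 and 12 in every setting run. SLC38A12 was called for the mean effect in every setting run, and SLC60A1 and SLC68A1 in every one but the threshold of 0.01. Centring moved the share of higher calls over all genes from 60.3% to 72.3% in HCT116, while the median of all genes moved by under 0.1.

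Replicate numbers are shared between groups in the labels. Deviations of same-numbered arrays correlated at 0.055 in HCT116, -0.039 in SW48 and -0.055 in RKO. Over all 15 pairs of groups the correlations ran from -0.127 to 0.055. Whether same-numbered arrays share a culture or a run is not stated, and these values cannot decide it. With the replicate block the counts were 0 in HCT116, 1 in SW48, 0 in RKO, 4 for the mean, 0 for the F test, and 15, 11 and 12 for the untreated pairs.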

Other observations

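Noncoding genes with SLC-based symbols, which the rule leaves out, numbered 14, of which 13 are long noncoding RNAs and 1 a transcribed pseudogene. In the mean over the lines SLC25A21-AS1 passed the test at the edge of the threshold (0.24 ± 0.066, adjusted p = 0.0466), beside 10.8% of all genes. The alternative settings were not run for it. In any 1 line limma called 0 of the 14, with 2 at an unadjusted p under 0.05 in HCT116, 0 in SW48 and 3 in RKO. The shares of all genes called were 5.11%, 3.12% and 2.02%. At counts this low the 14 cannot be set apart from the background. SLC60A1-AS1, the antisense gene of the SLC60A1 locus, stood at 3.64 in untreated HCT116, 4.37 in SW48 and 3.59 in RKO (adjusted p of the F test 0.000977), below the median of all probe sets. With Nutlin-3a it stood at -0.042 ± 0.08, adjusted p = 0.807 in the mean. SLC2A1-DT, the divergent transcript of the glucose transporter gene SLC2A1, differed between untreated lines (adjusted p of the F test 8.2e-05), with 5.68 in HCT116, 6.36 in SW48 and 5.29 in RKO. SLC9A9-AS1, SLC25A51P4 and SLC9A3-OT1 also passed that F test (adjusted p = 0.00207, 0.00591 and 0.0301). The remaining noncoding genes did not, beside 58.1% of all genes that passed it.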
